A study of Mus musculus with 22 samples.

Results

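The mitochondrial ribosomal protein genes were taken as every gene whose symbol begins with Mrpl or Mrps followed by a number, and each gene was represented by its brightest probe among those detected (detection p under 0.05) on at least 4 of 22 arrays. Of 76 such genes with a probe, 74 were measured this way, out of 11118 genes tested in all. By symbol, the 74 comprised 46 Mrpl genes, named for the large subunit, and 28 Mrps genes, named for the small subunit. Subunit groups below were read from the symbol alone, which need not match the place of every protein. The values come from Illumina bead arrays of haematopoietic populations sorted from bone marrow. All mice were C57BL/6, 8 weeks old and GATA1-GFP transgenic, so that green fluorescence reports GATA1, the transcription factor of erythroid cells and megakaryocytes. The populations were GATA1+LSK with 4 arrays, CMP (common myeloid progenitors) with 4, LMPP (lymphoid-primed multipotent progenitors) with 4, GATA1-LSK with 4 and LT-HSC (stem cells with long-term activity) with 6. LSK cells are the stem and early progenitor compartment defined by absence of lineage markers and presence of Sca-1 and Kit, and GATA1+LSK and GATA1-LSK are its reporter-positive and reporter-negative parts. No treatment is given, and there was no group without the transgene. The labels give neither the sort gates nor whether replicates came from separate mice, so p-values measure the spread between these samples, which may be technical.

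Mitochondria carry their own ribosome, whose RNAs are encoded in mitochondrial DNA and whose proteins are encoded in the nucleus, made in the cytosol and imported. It translates the few mitochondrially encoded subunits of the respiratory chain and of ATP synthase. Long-term stem cells are known for quiescence and for relying little on oxidative phosphorylation, whereas committed progenitors divide more and use mitochondria more, which makes the supply of mitochondrial ribosomal proteins of interest along this hierarchy. The series asks about the expression changes that accompany GATA1 up-regulation in these cells.

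The 22 arrays were spread over 4 slides, and slide and population were partly aligned. Slide 1 held GATA1-LSK and LMPP replicates 1 to 3. Slide 2 held replicates 1 and 2 of GATA1+LSK, CMP and LT-HSC. Slide 3 held GATA1+LSK replicate 3, GATA1-LSK replicate 4 and LT-HSC replicates 3 to 6. Slide 4 held GATA1+LSK replicate 4, CMP replicates 3 and 4 and LMPP replicate 4. Between 12264 and 19015 probes were detected per array, with the fewest on slide 3 (12264 to 15115) and the most on slide 2 (17347 to 19015). Marker genes followed the labels in part (limma, adjusted p under 0.05). All 6 measured megakaryocyte-erythroid markers, Gata1 among them, were higher in GATA1+LSK than in GATA1-LSK, against 1.08% of all genes. These cells were sorted on the GATA1 reporter, so the difference in Gata1 is no separate support for the labels. All 7 granulocyte-monocyte progenitor markers were higher in CMP than in LT-HSC, against 10.1% of all genes, and 4 of 6 stem cell markers were lower, against 11.4%. In LMPP 3 of 4 lymphoid-priming markers were higher than in GATA1-LSK, against 1.34% of all genes. Other comparisons separated the labels less. Only 1 of the 6 stem cell markers was lower in GATA1+LSK than in LT-HSC, and 1 in GATA1-LSK, against 6.34% and 2.74% of all genes. Hlf had its lowest mean in LT-HSC (5.495, against 5.529 in CMP and 6.043 in LMPP). Slamf1 averaged 5.98 in GATA1+LSK and 5.54 in LT-HSC, and the megakaryocyte-erythroid marker Vwf 11.21 and 11.62. The LSK marker Kit was detected on every array of every population, whereas Ly6a, the gene of Sca-1, was not measured here. Markers of mature cells varied between arrays of the same population. The summed linear signal of 3 eosinophil markers lay between 9550 and 27900 in GATA1+LSK, 82.3 and 1430 in CMP, 97.3 and 173 in LMPP, 328 and 787 in GATA1-LSK, and 3310 and 18800 in LT-HSC. Of these 3, Ear6 and Epx were detected on no array of CMP, LMPP or GATA1-LSK, and Prg2 on every array. For 5 neutrophil markers the sums were 189 to 606 in GATA1+LSK, 133 to 140 in CMP, 159 to 265 in LMPP, 138 to 294 in GATA1-LSK and 166 to 4610 in LT-HSC. S100a8 was detected on no array of CMP, LMPP or GATA1-LSK, and S100a9 on none of CMP. The red cell marker Hba-a1 ran from 5.14 to 11.94 (log2) in GATA1+LSK and from 4.49 to 4.71 in GATA1-LSK, where it was detected on no array, and it was higher in GATA1+LSK by 4.04 (limma adjusted p = 0.0383). It was also higher in GATA1+LSK than in LMPP and CMP. Of 3 macrophage markers, C1qb and C1qc were lower than in LMPP both in GATA1+LSK (-1.45 and -1.41) and in CMP (-1.83 and -1.26), and the summed signal of all 3 was 71.6 to 187 in GATA1+LSK, 91.5 to 114 in CMP, 229 to 298 in LMPP, 86.4 to 197 in GATA1-LSK and 63.9 to 129 in LT-HSC. Mpo, a granulocyte-monocyte gene, spanned 7.45 to 13.61 within LT-HSC. The part of such cells in the results below was not tested, and in bulk samples fewer cells of a type and less RNA per cell cannot be told apart.

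The mitochondrial ribosomal protein genes were broadly expressed. Of the 74, 68 (91.9%) were detected on all 22 arrays, against 54.4% of all genes tested. The exceptions were Mrps15, detected on 21 arrays, Mrpl51 and Mrpl57 on 20, Mrps27 on 19, and Mrpl39 and Mrpl45 on 5 each. Mrpl39 and Mrpl45 were the genes nearest to the detection limit of 4 arrays. Mrpl19 and Mrpl32 lay outside it, with no probe detected on any array, and no gene was detected on exactly 3 or 4. Mrpl39 was detected on 2 GATA1+LSK arrays, 1 array each of CMP, LMPP and GATA1-LSK and 0 LT-HSC arrays. Probe brightness depends on the probe sequence, so levels are compared between samples and not between genes.

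Over the 5 populations most of these genes varied little. The distance between the highest and the lowest population mean had a median of 0.54 on the log2 scale over the 74 genes, against 0.66 over all genes. It reached 1 or more, a 2-fold span, in 8 of the 74 (10.8%), against 27.5% of all genes. CMP had the highest mean in 28 of them (37.8%, against 23.7% of all genes) and GATA1+LSK in 22 (29.7%, against 17%). LT-HSC had the lowest mean in 29 (39.2%, against 29.2% of all genes) and GATA1-LSK in 24 (32.4%, against 12.6%). By the moderated F test of limma over all populations, with Benjamini-Hochberg adjustment over all genes and a threshold of 0.05, 5 of the 74 genes (6.76%) differed between populations, against 22.9% of all genes. They were Mrpl54, Mrpl18, Mrps15, Mrpl12 and Mrpl50. Without the 6 arrays of slide 2 the order turned round, with 29 of the 74 genes called (39.2%), against 32.1% of all genes.

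**Figure D1:**
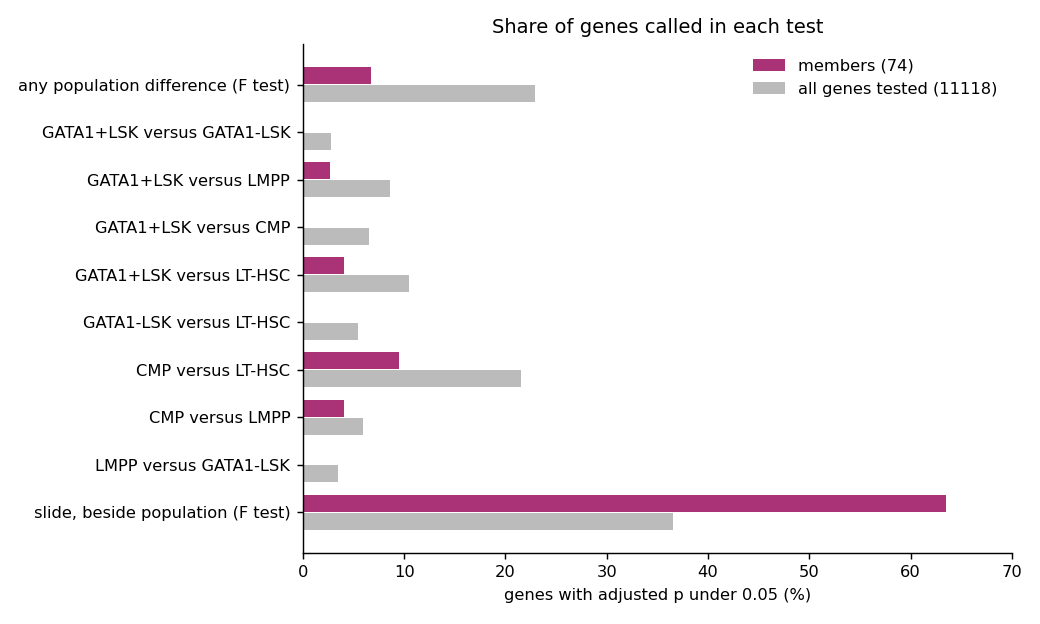
Percentage of genes with an adjusted p under 0.05 (limma) among the 74 mitochondrial ribosomal protein genes (upper bars) and among all 11118 genes (lower bars), for the F test over the 5 populations, the 8 pairwise comparisons and the test for slide. The share of the 74 genes was 6.76% for population and 63.5% for slide, against 22.9% and 36.5% of all genes.

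The level of these genes also followed the slide. With slide and population in one limma model, 47 of the 74 genes (63.5%) had an adjusted p under 0.05 for slide, against 36.5% of all genes, and 10 (13.5%) for population beside slide, against 24.2% of all genes. The median deviation of the 74 genes from their own means over the 22 arrays lay between -0.54 and 0.07 on slide 2, -0.21 and 0.04 on slide 1, 0.09 and 0.42 on slide 3 and 0.26 and 0.42 on slide 4. LT-HSC replicates 1 and 2, both on slide 2, had the lowest values (-0.45 and -0.54), while LT-HSC replicates 3 to 6, all on slide 3, lay between 0.09 and 0.23. GATA1+LSK split in the same way, with -0.33 and -0.13 on slide 2, 0.42 on slide 3 and 0.42 on slide 4. CMP replicates 1 and 2 on slide 2 stood at -0.03 and 0.07, and CMP replicates 3 and 4 on slide 4 at 0.30 and 0.37. The arrays of slide 2 had the brightest deposited signal (mean intensity 311 to 462) and those of slide 3 the dimmest (123 to 209). What part of the slide difference goes with signal strength was not tested. Because slides held unequal numbers of each population, each comparison of the 74 genes below is followed by its value within slides.

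**Figure D2:**
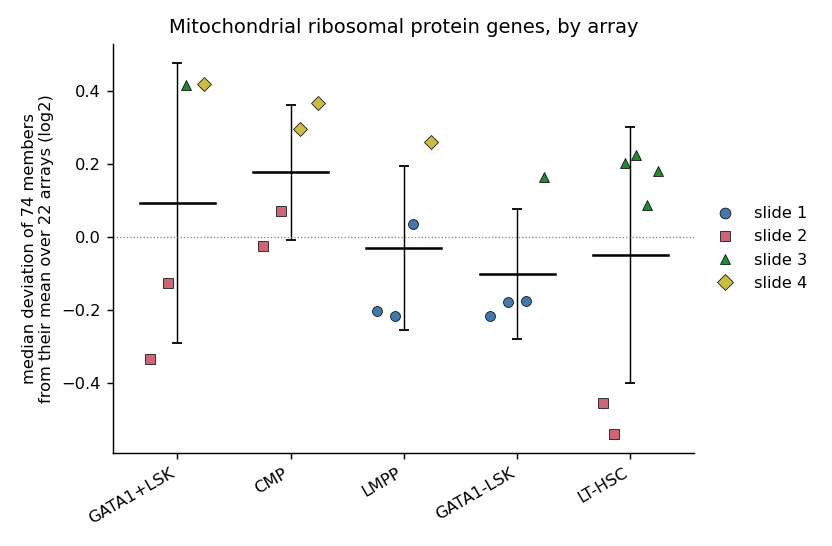
Median deviation of the 74 mitochondrial ribosomal protein genes from their means over the 22 arrays (log2, vertical axis) for each array, by population, with symbols for the slide; the line is the population mean and the bar its SD over 4 arrays (6 for LT-HSC). All 10 arrays of slides 3 and 4 lie above 0, and 10 of the 12 arrays of slides 1 and 2 lie below it.

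Across arrays the 74 genes varied together to a moderate degree. The median Pearson correlation over their pairs was 0.328 over 22 arrays, which share the 4 slides and one normalisation. It was 0.358 after population means were removed and 0.137 after population and slide were removed. For 70 oxidative phosphorylation subunit genes the same 3 medians were 0.351, 0.404 and 0.185, and for 58 cytosolic ribosomal protein genes 0.202, 0.208 and 0.115. The block of low values on slide 2 and of high values on slides 3 and 4 covered most large and small subunit genes in the map of deviations, and genes such as Mrps27, Mrpl4 and Mrpl9, singled out after their values were seen, ran the other way.

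**Figure D3:**
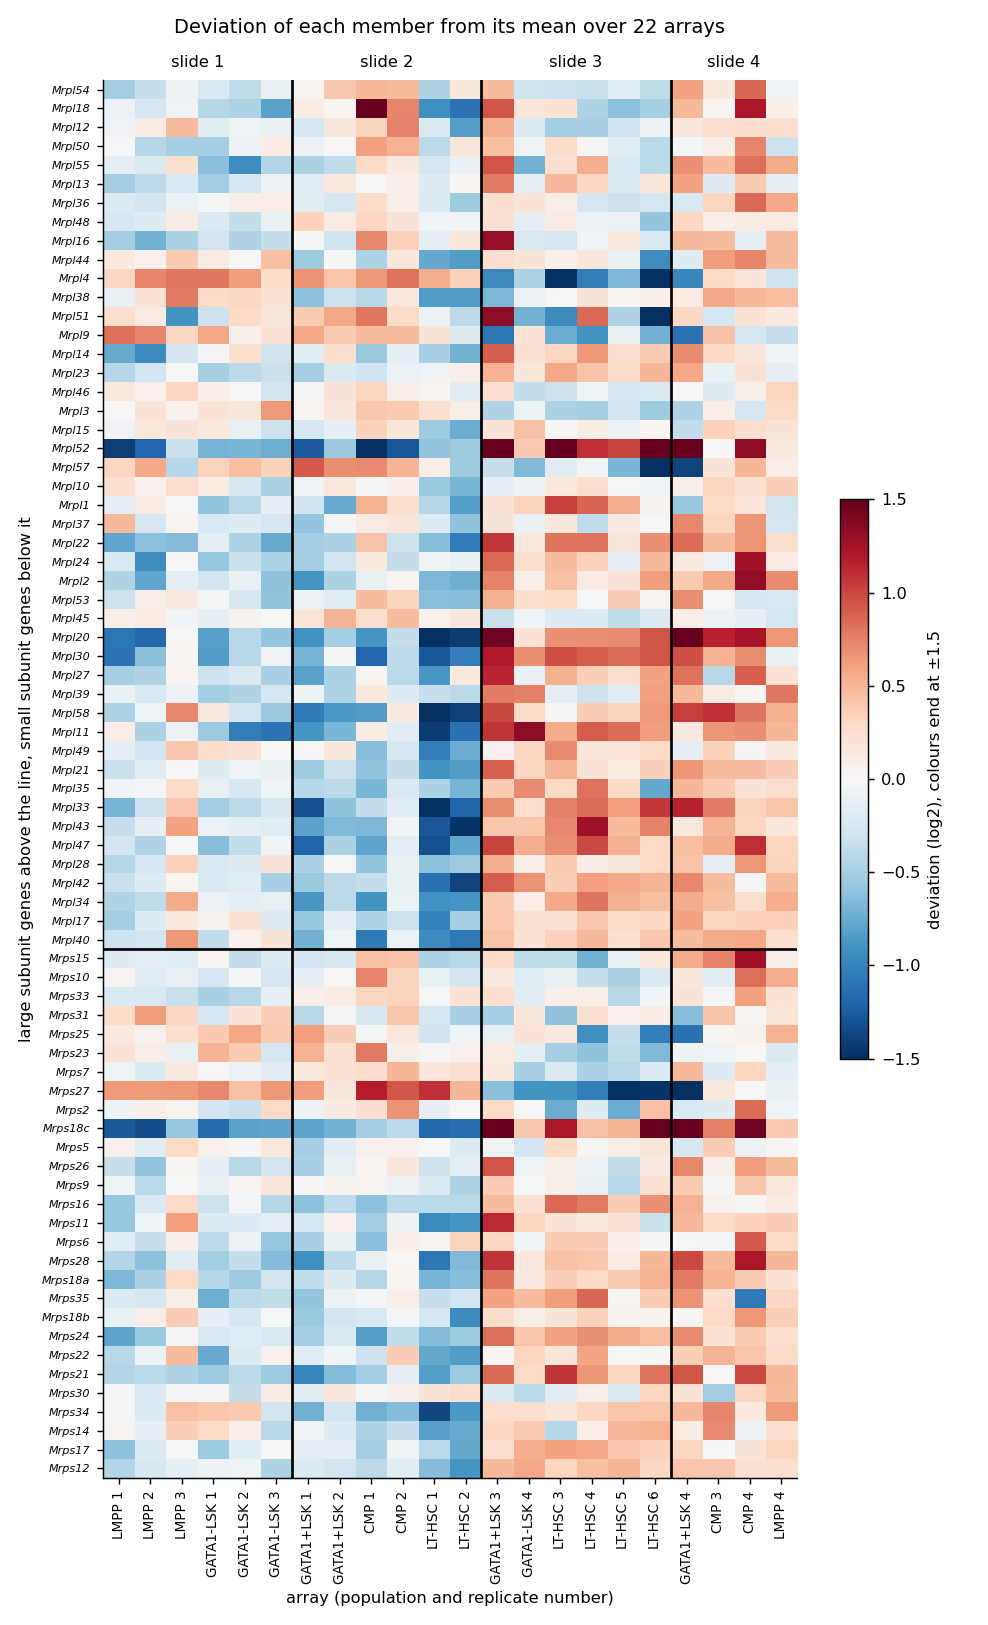
Deviation of each of the 74 genes (rows, log2) from its mean over 22 arrays (columns, grouped by slide). Large subunit genes by symbol (Mrpl) are above the horizontal line and small subunit genes by symbol (Mrps) below it. Each group is ordered by the F test over populations. Most rows are blue (below their mean) on slides 1 and 2 and red (above it) on slides 3 and 4.

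Mrpl54 encodes a large subunit protein with no bacterial homologue and had the smallest p of the F test among the 74 genes (adjusted p = 0.0024, limma). Its log2 signal was 10.81, 11.17, 11.24 and 11.38 in GATA1+LSK, 11.26, 11.25, 10.93 and 11.64 in CMP, 10.25, 10.43, 10.69 and 10.72 in LMPP, and 10.54, 10.39, 10.66 and 10.47 in GATA1-LSK. In the 6 LT-HSC arrays it ran from 10.32 to 10.94. All GATA1+LSK and CMP arrays were above all LMPP and GATA1-LSK arrays, and only LT-HSC replicate 2 (10.94) reached into their range. The call was lost with slide as a fixed block (adjusted p = 0.0657) and with median scaling (0.123).

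Mrpl18, a homologue of bacterial L18, a protein of the central protuberance of the large subunit, showed the widest span of population means among the genes called by this test (1.48, adjusted p = 0.0033). Its log2 signal was 7.31, 7.23, 8.13 and 7.68 in GATA1+LSK, 8.87, 7.92, 7.22 and 8.42 in CMP, 7.10, 6.94, 7.13 and 7.27 in LMPP, and 6.77, 6.73, 6.38 and 7.37 in GATA1-LSK. In LT-HSC the lowest, median and highest values were 6.08, 6.64 and 7.40. CMP was highest and LT-HSC lowest, with CMP replicate 3 and LT-HSC replicate 3 overlapping. A second probe of Mrpl18, detected on 4 arrays, differed in the same direction but by only 0.21 between CMP and LT-HSC.

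Mrps15 encodes a homologue of bacterial S15, which binds the small ribosomal RNA early in subunit assembly. Its log2 signal was low, at 5.51, 5.55, 6.07 and 6.35 in GATA1+LSK, 6.23, 6.22, 6.53 and 7.04 in CMP, 5.60, 5.65, 5.62 and 5.89 in LMPP, and 5.82, 5.43, 5.60 and 5.40 in GATA1-LSK. In LT-HSC it ran from 5.07 to 5.95 and was detected on 5 of 6 arrays. All CMP arrays were above all LMPP, GATA1-LSK and LT-HSC arrays (F test adjusted p = 0.00646).

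Mrpl12 encodes the homologue of bacterial L7/L12, the stalk protein that contacts translation factors, and in human cells it also binds the mitochondrial RNA polymerase. The log2 signal of Mrpl12 was 11.26, 11.67, 12.05 and 11.67 in GATA1+LSK, 11.84, 12.25, 11.75 and 11.74 in CMP, 11.46, 11.62, 11.98 and 11.78 in LMPP, and 11.34, 11.45, 11.41 and 11.30 in GATA1-LSK. In LT-HSC the lowest, median and highest values were 10.68, 11.12 and 11.42. The CMP and LMPP arrays were all above the LT-HSC arrays (F test adjusted p = 0.0107, and 0.0525 without slide 3).

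Mrpl50, which encodes a large subunit protein without a bacterial homologue, was the last of the 5 (adjusted p = 0.0448). On the log2 scale it stood at 9.19, 9.27, 9.73 and 9.25 in GATA1+LSK, 9.89, 9.80, 9.37 and 10.01 in CMP, 9.28, 8.85, 8.78 and 8.96 in LMPP, and 8.79, 9.19, 9.39 and 9.21 in GATA1-LSK. In LT-HSC it ran from 8.87 to 9.56. CMP was the highest population and did not overlap LMPP. All 5 genes were picked by p on the same arrays, so a lack of overlap between populations is no separate support for them. Leaving out any of 13 of the 22 arrays ended the call of Mrpl50, with an adjusted p of up to 0.146. It was also lost with slide as a fixed (0.106) or random block (0.0596), with the replicate block (0.0617), with the authors' values (0.0619), without slide 2 (0.197) and with median scaling (0.529).

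**Figure D4:**
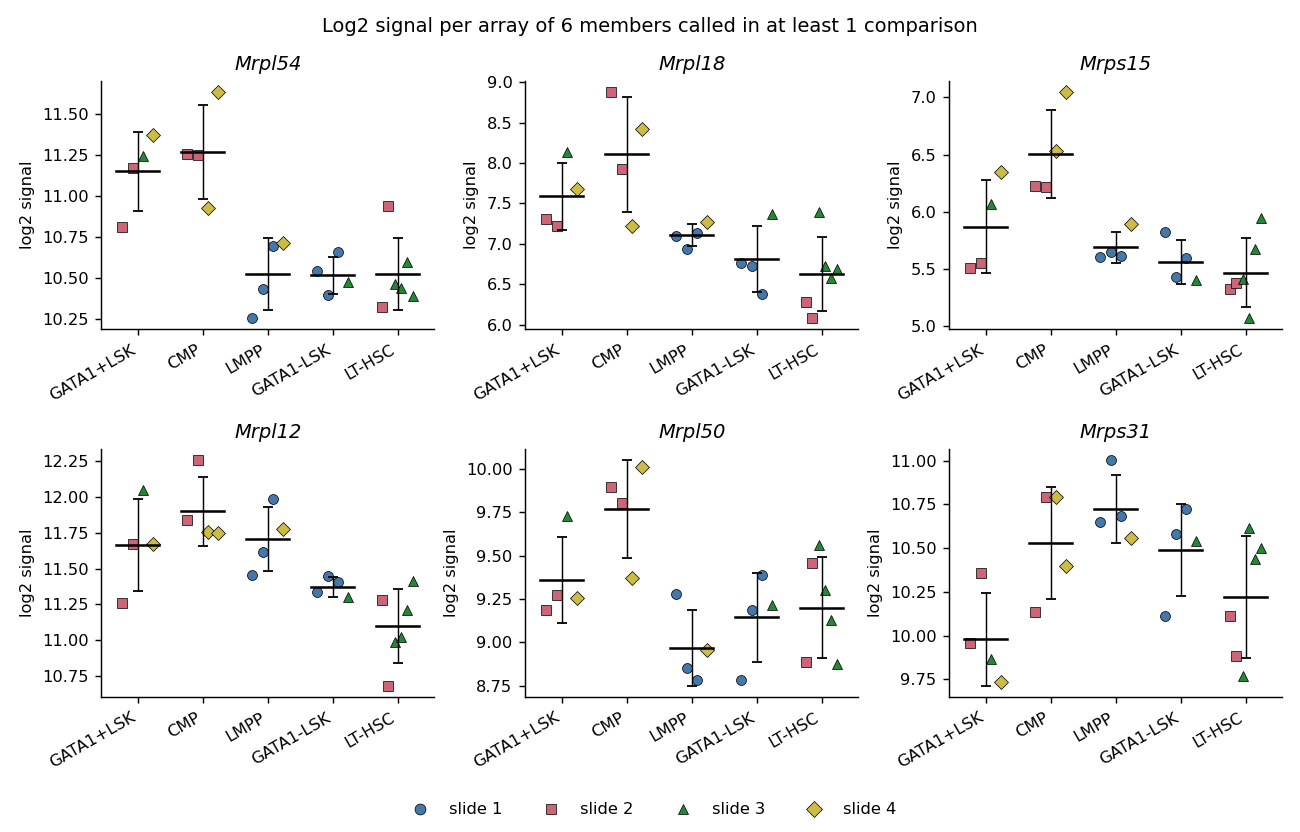
Log2 signal per array (vertical axis) of Mrpl54, Mrpl18, Mrps15, Mrpl12, Mrpl50 and Mrps31 by population, with symbols for the slide; lines are population means and bars SD over 4 arrays (6 for LT-HSC). Mrpl54 lies above 10.80 on every GATA1+LSK and CMP array, and Mrps31 lies below 10.36 on every GATA1+LSK array.

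The promoters of the leading genes are printed to show which of them hold the ETS site (CCGGAAG) that GABP, a known regulator of nuclear genes for mitochondrial proteins, recognises. Windows from 250 bases before to 50 after the start (RefSeq, GRCm38.p6) were found for 66 of the 74 genes, 72 windows in all, and for 4 of the 5 leading genes. The 250 bases upstream of each are given 5′ to 3′ along the gene, with the ETS site in capitals.
Mrpl18, chr17:12916092-12916341, minus strand: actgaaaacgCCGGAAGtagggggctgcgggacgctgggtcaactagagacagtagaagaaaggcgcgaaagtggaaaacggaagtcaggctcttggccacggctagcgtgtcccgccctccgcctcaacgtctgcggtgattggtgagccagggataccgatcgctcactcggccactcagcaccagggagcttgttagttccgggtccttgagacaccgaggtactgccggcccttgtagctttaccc
Mrps15, chr4:126046678-126046927, plus strand: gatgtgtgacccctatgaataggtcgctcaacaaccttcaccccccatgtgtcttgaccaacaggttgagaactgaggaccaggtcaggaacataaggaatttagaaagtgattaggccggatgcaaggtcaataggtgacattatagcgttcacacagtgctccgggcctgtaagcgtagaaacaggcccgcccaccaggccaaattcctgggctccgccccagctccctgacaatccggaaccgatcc
Mrpl12, chr11:120484387-120484636, plus strand: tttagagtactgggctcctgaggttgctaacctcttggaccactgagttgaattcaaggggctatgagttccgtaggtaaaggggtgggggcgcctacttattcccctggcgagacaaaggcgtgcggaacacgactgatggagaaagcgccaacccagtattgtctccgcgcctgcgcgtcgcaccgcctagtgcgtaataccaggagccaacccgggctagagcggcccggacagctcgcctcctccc
Mrpl50, chr4:49521084-49521333, minus strand: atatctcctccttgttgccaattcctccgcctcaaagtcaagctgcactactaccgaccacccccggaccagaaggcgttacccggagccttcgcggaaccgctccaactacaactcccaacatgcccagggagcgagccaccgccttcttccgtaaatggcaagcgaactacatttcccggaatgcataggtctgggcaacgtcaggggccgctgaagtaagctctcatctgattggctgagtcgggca
Mrpl18 held the ETS site 240 bases before its start. None of the other 3 held it, nor the YY1 site (AAGATGGC), the NRF1 site (GCGCATGC) or the E-box (CACGTG) that MYC recognises, in these letters on either strand. Over all 72 windows the ETS site was found in 36.1%, against 16.1% of 11498 windows of the tested genes and 8.86% of all 32851 windows. The YY1 site was found in 15.3%, against 4.08% of windows of tested genes, and the NRF1 site in 9.72%, against 4.8%. The E-box (9.72%, against 9.57%) and the CCAAT box (37.5%, against 37.8%) were about as frequent as in windows of tested genes. TATAAA was found in 6.94%, against 8.15% of windows of tested genes and 13.6% of all windows. Both strands were searched. The end of the ETS letters is also the start of the YY1 letters (AAG), so that matches of these 2 can overlap, and a match is a description of the sequence only.

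CMP against LT-HSC compares committed myeloid progenitors with the stem cells at the top of the hierarchy, and it gave the most calls. In it 7 of the 74 genes were higher in CMP and 0 lower (9.46%), against 21.5% of all genes called, of which 10.1% were higher and 11.4% lower. Without slide 3 the order turned round, with 20 of the 74 genes called (27%), against 23% of all genes. Median scaling gave 11 (14.9%), against 13.8% of all genes. The 7 were Mrpl18, Mrps15, Mrpl12, Mrpl54, Mrps10, Mrpl36 and Mrpl50, of which 5 belong to the large and 2 to the small subunit. Mrpl18 averaged 8.11 ± 0.71 in CMP and 6.63 ± 0.45 in LT-HSC (SD, n = 4 and 6), a log2 difference of 1.48 ± 0.29 (SE, 2.79-fold, limma adjusted p = 0.000604). Mrps15 averaged 6.51 ± 0.39 in CMP and 5.47 ± 0.30 in LT-HSC, a difference of 1.04 ± 0.21 (adjusted p = 0.000806). Mrpl12 differed by 0.80 ± 0.18 (adjusted p = 0.00222) and Mrpl54 by 0.75 ± 0.17 (adjusted p = 0.00277). These 4 calls held without any single array. Those of Mrpl12 and Mrpl18 were lost without the 6 arrays of slide 2 (adjusted p = 0.0732 and 0.065), and that of Mrpl54 without those of slide 3 (adjusted p = 0.0787).

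Mrps10, the homologue of bacterial S10, had a log2 signal of 11.05, 10.64, 10.15 and 11.13 in CMP, against 9.83 to 10.20 in LT-HSC, a difference of 0.69 ± 0.18 (SE, limma adjusted p = 0.0098). Its 2 other detected probes were higher in CMP by 0.36 and 0.58. The call was lost without CMP replicate 1 or CMP replicate 4, with an adjusted p of at most 0.0518. It was also lost with slide as a fixed block (0.0556), with median scaling (0.067), with the mean of its detected probes (0.0749) and without slide 3 (0.112) or slide 2 (0.141). Mrpl36, the homologue of bacterial L36, stood at 9.93, 9.74, 9.97 and 10.50 in CMP, against 9.12 to 9.74 in LT-HSC, a difference of 0.63 ± 0.19 (adjusted p = 0.0177). Without CMP replicate 4 its adjusted p was 0.0894, and the call was also lost with median scaling (0.0547) and without slide 2 (0.0558). Mrpl50 was higher by 0.57 ± 0.19 (adjusted p = 0.0344), a call that was lost without CMP replicate 1, 2 or 4 or LT-HSC replicate 1, 5 or 6, with an adjusted p of up to 0.111. Replicate numbers were read as pairs for these arrays, and with the replicate block Mrpl50 was not called (0.47, adjusted p = 0.128). Nor was it with median scaling (0.142), in a fit of CMP and LT-HSC alone (0.0932), or without slide 2 (0.26) or slide 3 (0.0938). Mrps15, Mrpl12 and Mrpl36 were the called genes whose CMP and LT-HSC arrays did not overlap. Called genes were picked by p on the same arrays, so this is no separate support. The share of all genes without overlap was not counted.

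The 74 genes as a set had a median difference of 0.25 between CMP and LT-HSC, against 0.06 over all genes, and 57 of them were above 0. The lowest was Mrpl52 (-1.12) and the highest Mrpl18. Both populations were together on slide 2 alone, where the median was 0.44 with 67 of 74 genes above 0, against 0.08 over all genes with 56.4% above 0, in 2 arrays of each. A fixed slide block gave 13 genes that were higher and 0 lower (23.8% of all genes called), 6 of them among the 7 above, Mrps10 being the exception. Among the added genes were Mrpl11, a homologue of bacterial L11, with a difference of 1.22 ± 0.20 (adjusted p = 0.000142), and Mrpl15, a homologue of bacterial L15, with 0.85 ± 0.17 (adjusted p = 0.000704), both named after their values were seen. Genes of the cell cycle differed between the same populations: 12 of 13 measured genes of DNA replication and mitosis were higher in CMP, against 10.1% of all genes. Their median difference was 1.96. Whether cycling has a part in the difference of the 74 genes was not tested.

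CMP against LMPP compares the myeloid with the lymphoid-primed progenitors. Of the 74 genes, 3 were higher in CMP and 0 lower (4.05% of the 74, against 5.89% of all genes called, 2.27% higher and 3.62% lower). Mrpl50 averaged 9.77 ± 0.28 in CMP and 8.97 ± 0.22 in LMPP (SD, n = 4 each), a difference of 0.80 ± 0.21 (SE, limma adjusted p = 0.0203). Mrpl54 averaged 11.27 ± 0.29 in CMP and 10.52 ± 0.22 in LMPP, a difference of 0.75 ± 0.19 (adjusted p = 0.0169). Mrps15 averaged 6.51 ± 0.39 in CMP and 5.69 ± 0.14 in LMPP, a difference of 0.82 ± 0.23 (adjusted p = 0.0344). None of the 3 overlapped between these populations. They were picked by p on the same arrays, and the share of all genes without overlap was not counted. On slide 4, with 2 CMP arrays and 1 LMPP array, they differed by 0.73, 0.57 and 0.90, and with slide as a fixed block Mrps15 alone was called (0.98 ± 0.25, adjusted p = 0.0265, against 4.14% of all genes). Each call was lost without some single arrays: Mrpl54 without LMPP replicate 1 or 2 or CMP replicate 4 (adjusted p up to 0.0798), Mrpl50 without LMPP replicate 2 or 3 or CMP replicate 1, 2 or 4 (up to 0.0787), and Mrps15 without LMPP replicate 1, 2 or 3 or CMP replicate 3 or 4 (up to 0.154). The median of the 74 genes was 0.17, against -0.01 over all genes, and 0.11 within slide 4.

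GATA1+LSK against LT-HSC sets the reporter-positive progenitors against stem cells. Mrpl54, Mrpl18 and Mrpl12 were higher in GATA1+LSK and 0 genes lower (4.05% of the 74, against 10.5% of all genes called, 4.16% higher and 6.34% lower). Mrpl54 averaged 11.15 ± 0.24 in GATA1+LSK and 10.52 ± 0.22 in LT-HSC (SD, n = 4 and 6), a difference of 0.63 ± 0.17 (SE, limma adjusted p = 0.0191). Mrpl18 averaged 7.59 ± 0.42 in GATA1+LSK and 6.63 ± 0.45 in LT-HSC, a difference of 0.96 ± 0.29 (adjusted p = 0.0345). Mrpl12 averaged 11.66 ± 0.32 in GATA1+LSK and 11.10 ± 0.26 in LT-HSC, a difference of 0.56 ± 0.18 (adjusted p = 0.0462). The arrays of the 2 populations overlapped for all 3. Both slides that held GATA1+LSK and LT-HSC arrays gave the same direction, by 0.36 and 0.77 for Mrpl54, 1.09 and 1.28 for Mrpl18, and 0.48 and 0.89 for Mrpl12 on slides 2 and 3.

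Single arrays decided these 3 calls. That of Mrpl54 was lost without GATA1+LSK replicate 3 or 4 (adjusted p up to 0.0755). That of Mrpl18 was lost without GATA1+LSK replicate 3 or 4 or LT-HSC replicate 1, 2 or 5 (up to 0.138), and also when the mean of all detected probes was used. That of Mrpl12 was lost without any of 17 of the 22 arrays (up to 0.178). Replicate numbers were read as pairs here, although 3 of the 4 pairs shared a slide. With the replicate number as a block 3 genes were called, 2 of them from these 3, while Mrpl18 was not (13.1% of all genes called). A fixed slide block gave 7 calls, all higher (15.2% of all genes called), and all 3 were among them, whereas median scaling gave 0 (4.48%). The median of the 74 genes was 0.17, against 0.01 over all genes, with 0.26 within slide 2 and 0.35 within slide 3, and 57 of 74 above 0 on each slide. Of the 13 cycling genes, 11 were higher in GATA1+LSK, against 4.16% of all genes, with a median difference of 1.70. Whether cycling has a part here was not tested.

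GATA1+LSK against GATA1-LSK is the comparison to which the series title points, and 0 of the 74 genes were called (limma), against 2.74% of all genes, 1.08% higher and 1.66% lower. At an unadjusted p under 0.05 there were 9 (12.2%, against 14.6% of all genes). The smallest adjusted p was that of Mrpl54 (0.0778), which averaged 11.15 ± 0.24 in GATA1+LSK and 10.52 ± 0.11 in GATA1-LSK (SD, n = 4 each). Mrpl55, a large subunit protein without a bacterial homologue, followed, with 6.43, 6.53, 7.86 and 7.59 in GATA1+LSK, against 6.29, 5.98, 6.47 and 6.21 in GATA1-LSK (adjusted p = 0.136). Its GATA1+LSK replicates 3 and 4 were high, while replicates 1 and 2, on slide 2, were near GATA1-LSK and replicate 1 overlapped it. Mrps33, a small subunit protein without a bacterial homologue, had 11.39 to 11.56 in GATA1+LSK, against 10.82 to 11.18 in GATA1-LSK, without overlap (adjusted p = 0.207). It was named for its F p on the same arrays, and the share of all genes without overlap was not counted. The 95% intervals of the differences had a median half-width of 0.63, and 40 of the 74 lay within 1 log2 unit of 0 on both sides.

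The median difference of the 74 genes between GATA1+LSK and GATA1-LSK was 0.20, against -0.05 over all genes, with 53 above 0. On slide 3, with 1 array of each, it was 0.31, with 56 of 74 above 0 (75.7%, against 46% of all genes). These populations were compared mostly across slides, and the count of calls rested on slide 2: without its 6 arrays, which left GATA1+LSK with replicates 3 and 4, 25 of the 74 genes were called, 20 higher and 5 lower, against 15.3% of all genes. The largest of these, named after their values were seen, were Mrps18c (2.49 ± 0.50, SE, limma adjusted p = 0.00418) and Mrpl20 (2.16 ± 0.42, adjusted p = 0.00357). Without slide 2, GATA1+LSK stood on slides 3 and 4, and GATA1-LSK on slides 1 and 3. In the limma model with slide and population, Mrps18c and Mrpl20 had slide terms with adjusted p of 2.7e-06 and 5.31e-07. Their slide 4 minus slide 1 coefficients were 1.389 and 1.205. None was called with median scaling (0.702% of all genes called) or with slide as a block, fixed (1.91%) or random (2.51%), and 2 were called without GATA1+LSK replicate 1. Only slide 3 held arrays of both populations. Slides 2 and 4 held no GATA1-LSK array, and slide 1 held no GATA1+LSK array. For the arrays of these 3 slides, slide and population cannot be told apart in this comparison, with or without slide 2.

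GATA1+LSK against LMPP had 1 gene higher and 1 lower (2.7% of the 74, against 8.57% of all genes called, 3.71% higher and 4.86% lower). Mrpl54 was higher in GATA1+LSK, by 0.63 ± 0.19 (SE, limma adjusted p = 0.038), and its arrays did not overlap. Mrps31, a small subunit protein of mitochondria without a bacterial homologue, was lower. Its log2 signal was 9.96, 10.36, 9.87 and 9.73 in GATA1+LSK, against 10.65, 11.00, 10.68 and 10.55 in LMPP, with no overlap. The difference was -0.74 ± 0.22 (adjusted p = 0.0381), and its 2 other detected probes gave -0.66 and -0.85. Both genes were picked by p on the same arrays, and the share of all genes without overlap was not counted. Within slide 4, with 1 array of each, Mrpl54 was higher by 0.66 and Mrps31 lower (-0.82). Mrpl54 lost its call without LMPP replicate 1 or 2 or GATA1+LSK replicate 2, 3 or 4 (adjusted p up to 0.141), and Mrps31 without LMPP replicate 1, 2 or 3 or GATA1+LSK replicate 1, 3 or 4 (up to 0.135). Neither was called with slide as a fixed block, when 4 other genes were, all higher, against 7.63% of all genes. Mrpl54 and Mrps31 were also lost with slide as a random block (adjusted p = 0.0781 and 0.0943) and with median scaling (0.783 and 0.382). In each of these settings 1 other gene was called (8.71% and 4.02% of all genes). Both were lost as well in a fit of the 2 populations alone (0.114 and 0.0611) and without slide 3 (0.118 and 0.0652). With the authors' values Mrpl54 was lost (0.053).

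Mrpl13, a homologue of bacterial L13, was among the 10 genes with the smallest F p and had its largest difference here. Mrpl13 stood at 9.89, 10.22, 10.84 and 10.67 in GATA1+LSK, against 9.55, 9.67, 9.83 and 9.93 in LMPP, a difference of 0.66 ± 0.21 (adjusted p = 0.0631, limma). The median of the 74 genes was 0.10, against -0.04 over all genes. It was 0.12 within slide 4 and -0.02 without slide 3, when that of all genes was -0.03. With median scaling it was -0.003, and that of all genes was -0.11, so that the 74 genes stayed above all genes. Without slide 2, 22 of the 74 genes were called, 18 higher and 4 lower, against 19.7% of all genes. GATA1+LSK then stood on slides 3 and 4, and LMPP on slides 1 and 4.

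GATA1+LSK against CMP had 0 calls among the 74 genes (limma), against 6.5% of all genes, 3.49% higher and 3.01% lower, and 3 at an unadjusted p under 0.05 (4.05%, against 17.4%). The nearest was Mrps15, with 5.87 ± 0.41 in GATA1+LSK and 6.51 ± 0.39 in CMP (SD, n = 4 each, adjusted p = 0.114). The median of the 74 genes was -0.04, against -0.02 over all genes. It was -0.21 within slide 2, with 21 of 74 genes above 0 (28.4%, against 52.4% of all genes), and 0.09 within slide 4, with 41 above 0 (55.4%, against 45.5%). The 2 slides gave opposite signs. Replicate numbers were read as pairs in this comparison, although 3 of the 4 pairs shared a slide. With the replicate number as a block Mrps27 was called, lower in GATA1+LSK by 0.92 on the log2 scale (adjusted p = 0.0459, against 9.94% of all genes called). A fixed slide block gave 4 calls, all lower in GATA1+LSK (12.9% of all genes called), and median scaling gave 0 (3.11%).

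GATA1-LSK against LT-HSC had 0 calls (limma), against 5.45% of all genes, 2.71% higher and 2.74% lower, and 7 at an unadjusted p under 0.05 (9.46%, against 19.5%). The smallest adjusted p was that of Mrps25 (0.0847). The median of the 74 genes was -0.02, against 0.05 over all genes, and -0.07 within slide 3, where 1 GATA1-LSK array stood beside 4 LT-HSC arrays. It was 0.04 with slide as a fixed block, -0.23 without slide 2 and 0.36 without slide 3. Without slide 2, 17 of the 74 genes were called, 6 higher and 11 lower, against 14.9% of all genes. LT-HSC then stood on slide 3 alone. Without slide 3 there were 3, all higher, against 8.41%. None was called with a fixed slide block (2.24% of all genes) or with median scaling (1.32%).

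LMPP against GATA1-LSK, with 3 arrays of each on slide 1, was the best balanced comparison, and 0 of the 74 genes were called (limma), against 3.49% of all genes, 1.34% higher and 2.15% lower. There were 2 at an unadjusted p under 0.05 (2.7%, against 10.3%). The median difference was 0.07, against 0.01 over all genes, and 0.05 within slide 1. Half-widths of the 95% intervals had a median of 0.63, and 58 of 74 intervals lay within 1 log2 unit of 0. The largest difference was that of Mrpl55, with 6.76, 6.69, 7.13 and 7.47 in LMPP, against 6.29, 5.98, 6.47 and 6.21 in GATA1-LSK, without overlap (0.78 ± 0.29, SE, adjusted p = 0.222). It was picked for its size on the same arrays, and the share of all genes without overlap was not counted. Median scaling gave 0 calls (1.58% of all genes), and a fixed slide block 1, Mrpl11, named after its value was seen (0.66 ± 0.18, adjusted p = 0.0339, against 6.04% of all genes). LMPP against LT-HSC and GATA1-LSK against CMP shared no slide and were not tested.

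**Figure D5:**
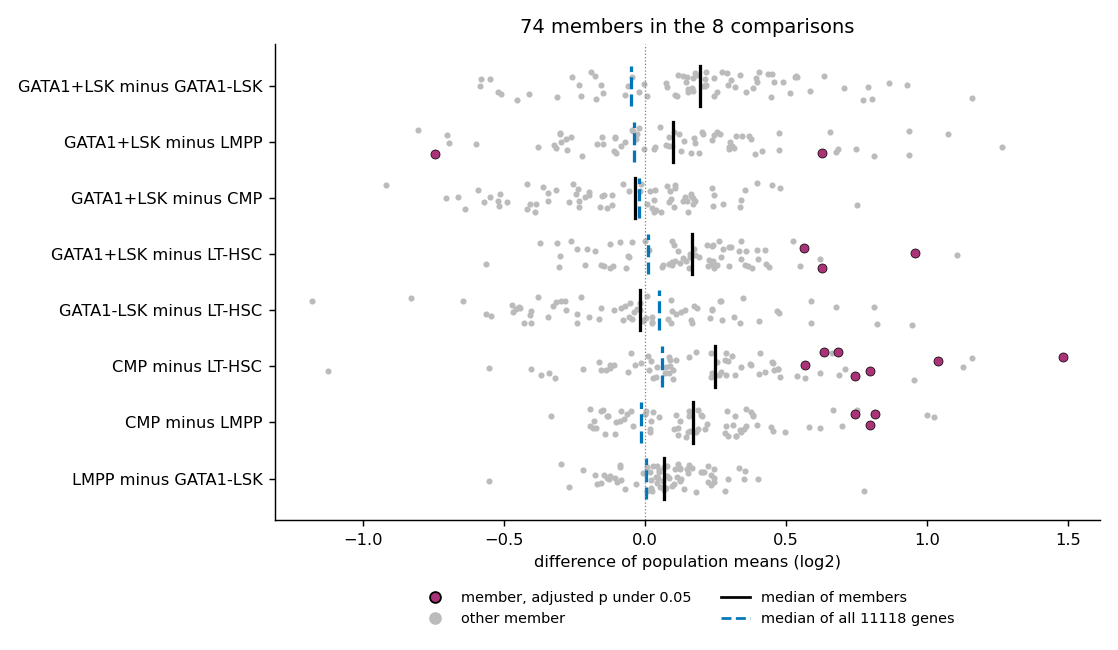
Difference of population means (log2, horizontal axis) of each of the 74 genes in the 8 comparisons, with called genes (adjusted p under 0.05, limma) in colour, the median of the 74 genes as a solid line and the median of all genes as a dashed line. The median of the 74 genes is highest for CMP minus LT-HSC (0.25) and near 0 for GATA1+LSK minus CMP (-0.04).

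The genes with the least variation between populations were Mrpl17, Mrpl40 and Mrpl28, all of the large subunit, among the 68 detected on all arrays. Population means of Mrpl17 spanned 0.13, with 12.16 ± 0.53 in GATA1+LSK, 12.06 ± 0.42 in CMP, 12.04 ± 0.38 in LMPP, 12.16 ± 0.20 in GATA1-LSK and 12.03 ± 0.58 in LT-HSC. Those of Mrpl40 spanned 0.16 and those of Mrpl28 0.17. Their arrays nevertheless varied within populations. Mrpl40 had 10.57, 11.22, 11.72 and 11.75 in GATA1+LSK, and in LT-HSC replicates 1 and 2 on slide 2 it stood at 10.34 and 10.22, with replicates 3 to 6 on slide 3 between 11.54 and 11.77. All 3 genes had a slide term with an adjusted p under the threshold (0.000339, 0.000697 and 0.00717 for Mrpl17, Mrpl40 and Mrpl28, limma).

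Large and small subunit genes, as grouped by symbol, differed little in their medians. Between CMP and LT-HSC the median difference was 0.25 over the 46 large subunit genes and 0.25 over the 28 small subunit genes. Between GATA1+LSK and GATA1-LSK it was 0.21 and 0.18, between GATA1+LSK and LT-HSC 0.16 and 0.19, and between GATA1+LSK and CMP -0.10 and 0.02. Split by descent, 45 of the 74 proteins were classed as homologues of bacterial ribosomal proteins, by their number with some exceptions, and 29 were not. Homology to other bacterial proteins was not considered. Between CMP and LT-HSC the medians were 0.10 and 0.32, with 5 of 45 and 2 of 29 genes called, against 21.5% of all genes. For slide 33 of 45 and 14 of 29 were called, against 36.5% of all genes. This split was made after results of these data were known and was not tested.

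Other parts of the mitochondrial translation machinery are given as lists, to be read against the shares of all genes called. Calls in these and the further lists below come from the model without slide. No values within slides, with a slide block or without single arrays are given for them. Among 14 mitochondrial translation factor genes, 3 were higher in CMP than in LT-HSC and 0 lower (median difference 0.68), against 10.1% of all genes higher and 11.4% lower. They were Tufm, the elongation factor that brings aminoacyl-tRNA to the ribosome (0.51 ± 0.18, SE, limma adjusted p = 0.0441), Gfm1, the translocation factor (1.38 ± 0.37, adjusted p = 0.00896), and Mtrf1, a release factor family member (0.90 ± 0.31, adjusted p = 0.0438). Gfm1 was detected on 4 of 4 CMP arrays and 2 of 6 LT-HSC arrays, so most of its LT-HSC values were not above background. Mtif2, the initiation factor, was lower in GATA1+LSK than in CMP (-1.15 ± 0.30, adjusted p = 0.0235) and than in LT-HSC (-0.90 ± 0.28, adjusted p = 0.0403).

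Among 17 genes for mitochondrial aminoacyl-tRNA synthesis, 4 were higher in CMP than in LT-HSC and 0 lower (median 0.39), against the same 10.1% and 11.4% of all genes. Mars2, the methionyl-tRNA synthetase, averaged 8.17 ± 0.14 in CMP and 7.03 ± 0.33 in LT-HSC (SD, n = 4 and 6), a difference of 1.14 ± 0.19 (SE, limma adjusted p = 0.000105). Qrsl1 and Gatb, subunits of the amidotransferase that completes glutaminyl-tRNA, were higher by 0.85 ± 0.21 (adjusted p = 0.00537) and 1.05 ± 0.29 (adjusted p = 0.0126). Aars2, the alanyl-tRNA synthetase, was higher by 0.78 ± 0.26 (adjusted p = 0.0327) and was detected on 3 of 6 LT-HSC arrays. Mars2 (0.64 ± 0.19, adjusted p = 0.0324) and Tars2, the threonyl-tRNA synthetase (0.51 ± 0.16, adjusted p = 0.047), were also higher in GATA1+LSK than in LT-HSC. Qrsl1 was lower in GATA1+LSK than in CMP (-0.85 ± 0.23, adjusted p = 0.0278) and than in LMPP (-0.82 ± 0.23, adjusted p = 0.0262).

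Among 19 genes of mitochondrial ribosome assembly, 3 were higher in CMP than in LT-HSC and 0 lower, with a median of 0.03, where 21.5% of all genes were called. They were C1qbp, a matrix protein needed for mitochondrial translation (1.31 ± 0.30, SE, limma adjusted p = 0.00239), Rbfa, which matures the small subunit (0.72 ± 0.17, adjusted p = 0.00364), and Eral1, a chaperone of the small ribosomal RNA (0.80 ± 0.28, adjusted p = 0.0417). Rbfa was also higher in GATA1+LSK than in LT-HSC (0.59 ± 0.17, adjusted p = 0.0271). Mettl17, a small subunit assembly factor, was lower in GATA1+LSK than in LMPP (-0.97 ± 0.21, adjusted p = 0.00406). Of 13 genes of mitochondrial DNA expression, 1 was called in any comparison: Lrpprc, which stabilises mitochondrial mRNAs, was higher in CMP than in LT-HSC (1.35 ± 0.28, adjusted p = 0.00129). Of 5 other mitochondrial ribosomal proteins under their own names, which include Mrpl57 and Mrpl58 of the 74, 0 were called in any comparison (limma). Single comparisons called between 2.74% and 21.5% of all genes. The share of all genes called in any comparison was not counted.

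The oxidative phosphorylation subunit genes and the cytosolic ribosomal protein genes are given for comparison. Between CMP and LT-HSC 4 of 70 oxidative phosphorylation genes were higher and 2 lower (median 0.07), and 0 of 58 cytosolic ribosomal protein genes were higher and 1 lower (median -0.20). Of all genes 10.1% were higher and 11.4% lower. Between GATA1+LSK and GATA1-LSK the medians were 0.33 and 0.08, with 2 higher and 0 lower among the oxidative phosphorylation genes and 0 higher and 1 lower among the cytosolic ribosomal protein genes. In that comparison 1.08% of all genes were higher and 1.66% lower. The difference between these lists and the 74 genes was not tested.

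Of 10 measured regulators of mitochondrial gene expression, the F test called 2 (limma), against 22.9% of all genes. Ppargc1b, a PGC-1 family coactivator, averaged 7.38 ± 0.83 in GATA1+LSK, 8.50 ± 0.60 in CMP, 9.15 ± 0.19 in LMPP, 9.26 ± 0.72 in GATA1-LSK and 7.92 ± 0.67 in LT-HSC (adjusted p = 0.0049). It was lower in GATA1+LSK than in GATA1-LSK (-1.89 ± 0.42, SE, adjusted p = 0.0151) and than in LMPP (-1.77 ± 0.42, adjusted p = 0.00825). It was higher in GATA1-LSK than in LT-HSC (1.34 ± 0.39, adjusted p = 0.0446). Pprc1, its relative, averaged 9.45 ± 0.27 in GATA1+LSK, 9.89 ± 0.12 in CMP, 9.29 ± 0.20 in LMPP, 9.41 ± 0.11 in GATA1-LSK and 8.96 ± 0.50 in LT-HSC (adjusted p = 0.0289). It was higher in CMP than in LT-HSC (0.93 ± 0.21, adjusted p = 0.00266). The calls of Ppargc1b and Pprc1 come from the model without slide, and no values within slides are given for them.

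The other 8 regulators did not pass. Nrf1, the nuclear respiratory factor, had means of 11.17 in GATA1+LSK, 11.12 in CMP, 10.95 in LMPP, 11.03 in GATA1-LSK and 10.73 in LT-HSC (F test adjusted p = 0.511, limma). Gabpa, the DNA-binding subunit of GABP, stood at 6.05 in GATA1+LSK, 5.48 in CMP, 5.46 in LMPP and 5.44 in GATA1-LSK (0.613). Its partners Gabpb1 (6.38 in LT-HSC to 6.67 in LMPP) and Gabpb2 (5.37 in LMPP to 5.99 in CMP) had adjusted p of 0.894 and 0.915. Esrra, an orphan nuclear receptor, ran from 7.98 in LT-HSC to 8.69 in CMP (0.241), and Mxd4, a MAX partner that opposes MYC, from 10.93 in CMP to 11.52 in LMPP (0.197). Myc averaged 5.25 ± 0.17 in GATA1+LSK, 5.70 ± 0.55 in CMP, 5.63 ± 0.71 in LMPP, 5.33 ± 0.95 in GATA1-LSK and 4.75 ± 0.36 in LT-HSC (0.211), and was detected on 2 of 6 LT-HSC arrays. Ppargc1a lay between 4.44 in CMP and 4.91 in LT-HSC (0.475) and was detected on no array of GATA1+LSK or CMP. Gata1 itself, on whose reporter the cells were sorted, averaged 7.19 ± 0.68 in GATA1+LSK, 6.62 ± 0.20 in CMP, 4.77 ± 0.21 in LMPP, 5.72 ± 0.36 in GATA1-LSK and 5.03 ± 0.37 in LT-HSC. Yy1, Max and Mycn were not measured here.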

How the data were processed

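Total RNA was amplified to biotin-labelled cRNA and hybridised to Illumina bead arrays, per the labels' protocols. The deposited non-normalised file holds linear intensity per probe, with values below 0 that show a background subtraction, and a deposited detection p-value per probe and array. The deposited series matrix holds linear intensity that appears to have been quantile normalised by the authors, since all columns share 1 minimum and 1 maximum. BeadStudio is named in the submitters' processing notes, without a version.

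Intensities were background corrected from the detection p-values, quantile normalised and put on the log2 scale with neqc (offset 16) of limma 3.58.1 in R 4.3.3. Of 45281 probes, 34885 named 1 gene (symbols updated through RefSeq), and 19764 were detected (p under 0.05) on at least 4 arrays. The brightest stood for each of 11118 genes. A group-means model over all 22 arrays (17 residual degrees of freedom) was fitted with lmFit and eBayes. Moderated tests were two-sided and Benjamini-Hochberg adjusted over all genes within each comparison, with a threshold of 0.05. The 8 comparisons were the pairs of populations that share a slide. Precision is limited by how many arrays each population has.

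The genes, lists, comparisons and tests were chosen with earlier results of these data known. Named genes were the 10 with the smallest F p, called genes up to 5 per direction, the 3 with the smallest range of means, genes at the detection limit, up to 4 called genes per related list and comparison, and all regulators. Alternatives changed one step at a time: no background correction, median scaling in place of quantiles, the series matrix values (log2 of value plus 16), the detection filter (none, or detection on every array), averaging of a gene's detected probes, the slide (fixed block, or random block with statmod 1.5.0), a block for replicate number, a fit of the compared populations alone, and omission of each array. Omission of slide 2 or of slide 3 was chosen after seeing the data. Replicate numbers, taken from the labels, were read as pairs where same-numbered arrays correlated above 0.1 in every pair after centring, which held for GATA1+LSK with CMP (r = 0.187 to 0.584) and with LT-HSC (0.24 to 0.641), and for CMP with LT-HSC (0.174 to 0.582) and with LMPP (0.327 to 0.473). Genes, over which these r were taken, are not independent replicates. Centring removed population means but not slide. Of 4 same-numbered pairs, 3 shared a slide for GATA1+LSK with CMP and 3 for GATA1+LSK with LT-HSC. For CMP with LT-HSC it was 2 and for CMP with LMPP 1. The labels do not say that replicates were matched, and pairing and a shared slide cannot be told apart. Mrpl36, Mrpl4, Mrpl9, Mrpl11, Mrpl15, Mrpl20, Mrpl52, Mrps18c, Mrps25 and Mrps27 fell outside the naming rule and were named after their values were seen.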

Additional observations from a re-analysis of the deposited data

Results flagged for a closer look

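Mrpl50 in GATA1+LSK replicate 3 stood apart from its group, with a log2 signal of 9.73, while the 3 other GATA1+LSK arrays lay between 9.19 and 9.27. The gap was 0.839 of the group's range. It was the only one of 75 groups (14 named genes and the median of all 74 genes, in 5 populations) to stand apart in this way, and about 1 in 20 would by chance.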

How the results depend on the processing

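The counts of called genes among the 74 depended on the slides and on the scaling. The counts as reported were 5 for any population difference, 7 for CMP against LT-HSC, 3 for CMP against LMPP, 3, 0, 2 and 0 for GATA1+LSK against LT-HSC, GATA1-LSK, LMPP and CMP, 0 for GATA1-LSK against LT-HSC and 0 for LMPP against GATA1-LSK. Percentages in brackets below are shares of all genes called, unless the 74 are named. With slide as a fixed block the counts became 10 for any difference (24.2%) and 13 for CMP against LT-HSC (23.8%). They were 7, 4 and 4 for GATA1+LSK against LT-HSC, LMPP and CMP (15.2%, 7.63% and 12.9%). CMP against LMPP had 1 (4.14%) and LMPP against GATA1-LSK 1 (6.04%). With slide as a random block (correlation 0.352) GATA1+LSK had 1 against LMPP (8.71%) and 2 against CMP (11.6%). With the replicate block the counts were 8 for any difference (28.3%) and 1, 6 and 1 for GATA1+LSK against GATA1-LSK, LMPP and CMP (5.14%, 12% and 9.94%). GATA1-LSK against LT-HSC had 1 (7.99%) and LMPP against GATA1-LSK 1 (5.27%). Of these comparisons, replicate numbers were read as pairs for GATA1+LSK against CMP alone. Of the 3 other comparisons read as pairs, CMP against LT-HSC had 9 (23.9%), with 6 of the 7 genes shared. Median scaling gave 11 for CMP against LT-HSC (14.9% of the 74, against 13.8% of all genes), with 4 of the 7 shared. Median scaling also gave 0 for CMP against LMPP (2.72%), and 0 and 1 for GATA1+LSK against LT-HSC and LMPP (4.48% and 4.02%). It moved the median of all genes, to 0.29 for CMP against LT-HSC (the 74 genes to 0.71), 0.11 for CMP against LMPP (0.41), -0.22 for GATA1+LSK against CMP (-0.39), -0.11 for GATA1+LSK against LMPP (-0.003) and 0.12 for LMPP against GATA1-LSK (0.25). The authors' values gave 1 call, lower, for GATA1+LSK against LMPP. Fitting only the populations compared gave 0 for GATA1+LSK against LMPP and 0 against LT-HSC. Without slide 2 the counts were 29 for any difference (32.1%) and 25 and 22 for GATA1+LSK against GATA1-LSK and LMPP (15.3% and 19.7%). They were 17 for GATA1-LSK against LT-HSC (14.9%) and 5 for CMP against LT-HSC (14.7%). Without slide 3 they were 11 for any difference (25%) and 20 for CMP against LT-HSC (27% of the 74, against 23% of all genes). GATA1-LSK against LT-HSC then had 3 (8.41%), and GATA1+LSK had 0 and 1 against LMPP and CMP (9.32% and 8.03%). Leaving out 1 array at a time gave 4 to 7 for any difference, 4 to 9 for CMP against LT-HSC, 0 to 4 for CMP against LMPP, 0 to 3, 0 to 2, 0 to 4 and 0 to 1 for GATA1+LSK against LT-HSC, GATA1-LSK, LMPP and CMP, 0 to 1 for GATA1-LSK against LT-HSC and 0 to 0 for LMPP against GATA1-LSK. No called gene changed direction under these alternatives. The cause of the changes was not tested.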
